A study of Mus musculus with 2 samples.

Results

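The 10 genes described here are Cyp2a4, Cyp2a5, Cyp2b9, Cyp2b13, Cyp2b19, Cyp2g1, Cyp1b1, Akr1c18, Akr1c13 and Rbp4, out of 27606 names on the array (transcript and probe identifiers included). They were chosen from the signals of the same 2 arrays that are described below, as enzymes of drug and steroid metabolism and a retinol carrier among which large differences had been seen. Every non-control probe that carries one of these names on both arrays was taken, which gave 17 of 41174 probes. Since the measured difference chose the genes, their values are a description and carry no test. Rbp4 is a carrier protein of the blood and not an enzyme, and both Cyp1b1 probes were below the background limit, so the name of the set holds only for part of it.

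M/E cells are mouse bone marrow cells that were immortalised by the fusion gene MLL/ENL. Both cultures had the genotype Mef2c del/-, so neither made functional MEF2C from its own alleles. The control culture carried the empty retroviral vector MYs-iPAC, and the other carried MYs-pMef2cASR, a vector for a constitutively active MEF2C whose binding to histone deacetylases is mutated (MEF2C-ASR). Both were selected with puromycin, grown in RPMI with fetal calf serum, the cytokines SCF (100 ng/ml) and GM-CSF, IL6 and IL3 (each at 10 ng/ml), and harvested 6, 24 and 48 h after seeding in fresh medium. The 3 harvests of a culture gave 1 pool of RNA, so each group is 1 pooled RNA on 1 Agilent whole mouse genome array, and values at single times cannot be separated. The labels do not say whether a culture grew from 1 clone. The comparison asks which transcripts differ when an active MEF2C is put into cells that lack it.

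Cytochrome P450 enzymes are haem proteins of the endoplasmic reticulum that insert oxygen into drugs, toxins, steroids and fatty acids, with electrons from the reductase Por. Those of the Cyp2 family act mainly in liver, lung, nose and skin, and lie in large clusters of near copies. Aldo-keto reductases of the Akr1c group are soluble enzymes that reduce or oxidise steroid ketones and other carbonyls with a nicotinamide cofactor. Rbp4 carries retinol from the liver through the blood, bound to transthyretin. Neither P450 enzymes of the Cyp2a type nor Rbp4 are classic products of bone marrow progenitors.

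The Cyp2a4 and Cyp2a5 genes are near copies, and the sequences around their start sites are shown to give how alike they are there. They hold no evidence on which transcript a probe binds, since no probe sequence was used here. Windows from 250 bases before to 50 bases after each start were taken from RefSeq (GRCm38.p6). The Cyp2a4 window is chr7:26306942-26307241 and the Cyp2a5 window is chr7:26835089-26835388, both on the plus strand. Capitals mark the bases that differ between them.
Cyp2a4: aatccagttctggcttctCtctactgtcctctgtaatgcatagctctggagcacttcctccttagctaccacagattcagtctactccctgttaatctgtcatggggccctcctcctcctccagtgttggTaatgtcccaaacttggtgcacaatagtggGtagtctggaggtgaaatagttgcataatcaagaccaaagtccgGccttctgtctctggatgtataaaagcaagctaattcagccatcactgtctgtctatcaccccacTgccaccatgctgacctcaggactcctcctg
Cyp2a5: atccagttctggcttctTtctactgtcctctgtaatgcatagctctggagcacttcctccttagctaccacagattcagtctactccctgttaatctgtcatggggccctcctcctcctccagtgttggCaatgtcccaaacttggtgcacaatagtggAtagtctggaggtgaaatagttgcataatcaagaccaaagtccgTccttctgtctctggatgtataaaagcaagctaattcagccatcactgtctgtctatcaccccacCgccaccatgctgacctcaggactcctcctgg
Of 299 aligned bases 294 were identical (98.3%) with no inner gap. The 5 substitutions from Cyp2a4 to Cyp2a5 were C19T, T131C, G161A, G205T and T270C, with positions counted from 1 at the 5′ end of the Cyp2a4 window.

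The Cyp2b9 and Cyp2b13 genes form a second such pair in the same cluster, with windows at chr7:26173159-26173458 and chr7:26061245-26061544, both on the plus strand of GRCm38.p6. They are shown because their probes, unlike those of the Cyp2a pair, gave signals that lay close together on the 2 arrays. Capitals again mark the bases that differ.
Cyp2b9: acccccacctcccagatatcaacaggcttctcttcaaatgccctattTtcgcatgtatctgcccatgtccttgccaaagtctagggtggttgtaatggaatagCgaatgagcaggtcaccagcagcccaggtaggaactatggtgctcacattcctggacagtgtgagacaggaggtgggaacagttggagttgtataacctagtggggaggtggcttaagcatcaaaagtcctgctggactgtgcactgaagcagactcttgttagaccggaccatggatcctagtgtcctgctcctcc
Cyp2b13: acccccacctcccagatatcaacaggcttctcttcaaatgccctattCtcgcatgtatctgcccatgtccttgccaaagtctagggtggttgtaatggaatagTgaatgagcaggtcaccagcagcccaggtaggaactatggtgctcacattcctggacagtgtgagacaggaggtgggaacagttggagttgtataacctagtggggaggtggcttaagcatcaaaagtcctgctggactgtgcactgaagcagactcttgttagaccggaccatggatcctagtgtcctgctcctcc
Of 300 bases 298 were identical (99.3%), and the substitutions from Cyp2b9 to Cyp2b13 were T48C and C104T, counted from 1 at the 5′ end of the Cyp2b9 window.

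Windows were found for 9 of the 10 genes, all but Cyp2g1, and 2 of the 10 windows belong to Rbp4. The letters TATAAA, searched on both strands after the sequences had been seen, occurred in 3 of the 10 windows and in 13.6% of all 32851 mouse windows. They begin at base 223 of the Cyp2a4 window, base 222 of the Cyp2a5 window and base 223 of the Rbp4 window at chr19:38124762-38125061. The degenerate MEF2 site occurred in 0 of the 10 windows, against 3.19% of all windows, on either strand. The core GCGTG, bound by the dioxin receptor Ahr with its partner Arnt, occurred in the Cyp1b1 window (1 site) and in the same Rbp4 window (3 sites), against 32.4% of all windows. Absence of letters from a window of 300 bases says nothing about binding elsewhere.

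Signals are the scanner software's processed signals, linear intensity units after background subtraction. A level is the log2 signal minus the array's 75th percentile, and a difference is the MEF2C-ASR level minus the control level. Each group is a single array without replicates, so a rule of size was used, a difference of 1 or more in log2 units (2-fold). Errors after ± are those of the scanner's error model for a spot and leave out variation between cultures. A probe counted as measured where the software called it well above background on both arrays, and where it was so on 1 array a bound was formed against the other array's lowest level that passed. Fewer cells with a transcript and less RNA per cell cannot be told apart in such pools.

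Of the 17 probes 9 were measured on both arrays, 3 were well above background on the control array only and 5 on neither. Of the 9 measured probes 3 were at least 2-fold lower with MEF2C-ASR and 0 were higher, and all 9 differences were below 0 (Cyp2b9 is at 0.00 with normexp background correction) with a median of -0.48. Over all 24391 measured probes 1.78% were at least 2-fold lower and 1.6% at least 2-fold higher, with a median of -0.02. Of these 24391 probes 13089 were below 0. All 3 bounds of the chosen genes were at least 2-fold lower, as were 95.8% of the 239 bounds of this kind on the array. Counted by the name on the probe, 4 of the 10 had one at least 2-fold lower or bounded so: Cyp2a4, Cyp2a5, Akr1c18 and Rbp4, though the Cyp2a4 and Cyp2a5 probes may read the same transcript (below). Among all 16582 genes with a measured probe 1.92% were at least 2-fold lower and 1.74% at least 2-fold higher. Transcript and probe identifiers that matched no gene are counted as genes there. Because the choice of genes used this contrast, nothing is read from these shares.

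**Figure D1:**
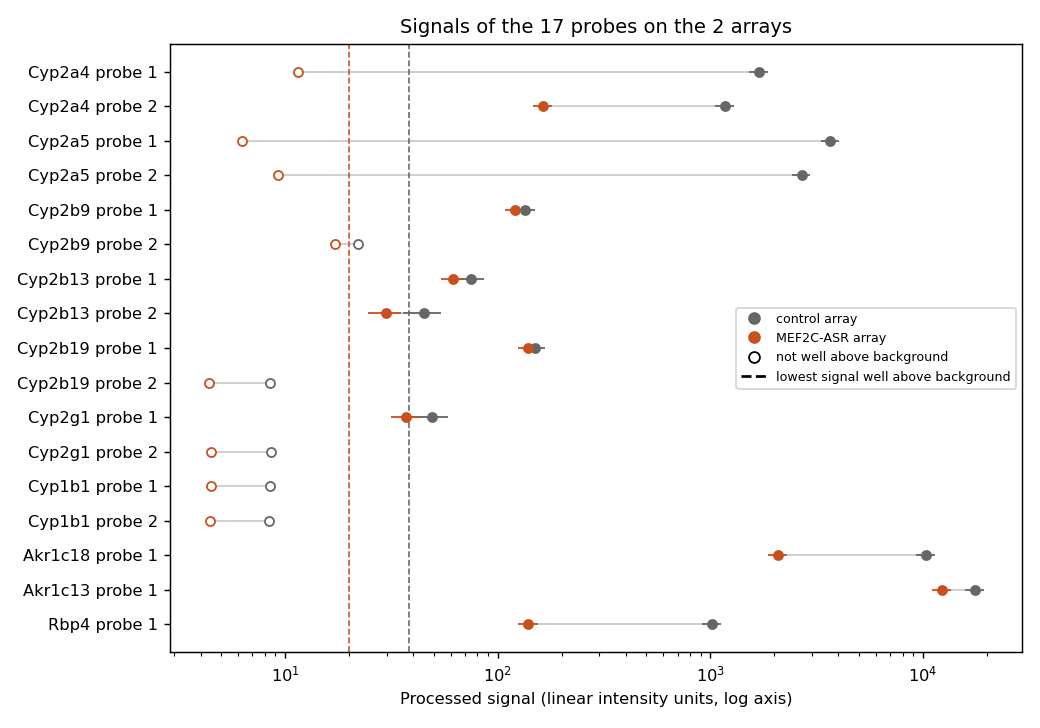
Processed signal of each of the 17 probes on the control array (grey) and the MEF2C-ASR array (orange), on a log axis; bars are the scanner's error of 1 spot, open circles are spots not well above background, and dashed lines mark the lowest signal well above background on each array. Both Cyp2a5 probes and Cyp2a4 probe 1 lie between 1692 and 3660 on the control array and at 11.5 or below on the other, where Cyp2a4 probe 2 is at 164.

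Cyp2a5 encodes the mouse coumarin hydroxylase, which also metabolises nicotine. Its first probe had a signal of 3660 ± 366 on the control array against 6.27 on the other, where it was not well above background. The signal of this probe was thus at least 179-fold lower with MEF2C-ASR (bound of 7.48 on the log2 scale). The second probe had 2683 in the control culture and 9.24 in the MEF2C-ASR culture, again not well above background, which gave at least 131-fold lower (7.03). With normexp background correction, the 2 bounds were a difference of -5.65 and of -4.95 or lower. That setting adds an offset to all signals, which weighs most on dim ones. Both probes were therefore bright in the control culture and below the limit in the other. Of the 239 bounds in this direction, 2 were as large as that of the first probe or larger and 3 as large as that of the second. These counts, and the counts below of measured probes as low or lower, include the probe itself. The lowest passing signal on the MEF2C-ASR array, called its limit here, was 20.0. Some brighter probes did not pass, such as Krt19 at 21.7, so the bounds hold against that lowest level only. The 153 negative control spots of that array had a median of 4.31, a 95th percentile of 9.79 and a maximum of 24.6. Both Cyp2a5 signals thus lay in the range of negative controls. The software still flagged both as positive and significant against background, so the values do not show that the transcript was absent.

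Cyp2a4 encodes a testosterone hydroxylase of liver and kidney. Its first probe had 1692 in the control and 11.5 with MEF2C-ASR, where it was not well above background, so it was at least 82.6-fold lower (6.37). With normexp it was a difference of -4.58 or lower. The MEF2C-ASR spot of that probe carried a background-outlier flag, and without such spots the probe has no value. The second probe had 1167 ± 117 on the control array against 164 ± 16.9 on the other, well above background on both. Its difference was -2.80 with an error of 0.21, or 6.96-fold lower, and 17 of the 24391 measured probes were as low or lower. The probes named for Cyp2a4 thus disagree in size: the measured one shows a smaller difference than the bound of the other.

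The 4 Cyp2a probes cannot be taken as separate readings of separate genes. In the scanner files all lie at one place on chromosome 7, between Cyp2b9 and Nlrp9c, and no source used here names the build of these coordinates. Cyp2a4 probe 1 (chr7:23212199-23212258) overlaps Cyp2a5 probe 1 (chr7:23212221-23212279) by 38 bases and Cyp2a5 probe 2 (chr7:23212159-23212218) by 20 bases. Cyp2a4 probe 2 overlaps neither, and its coordinates run over 1066 bases (chr7:23210886-23211951). Both Cyp2a4 probes and Cyp2a5 probe 2 list the RefSeq accessions of both genes, and only Cyp2a5 probe 1 lists those of Cyp2a5 without Cyp2a4. RefSeq (GRCm38.p6) places the genes apart, Cyp2a4 at chr7:26307192-26315088 and Cyp2a5 at chr7:26835339-26843264. The 3 probes with overlaps are those that lay below the limit with MEF2C-ASR, and the probe that stayed above it is the one that overlaps none. It is therefore uncertain which copy each probe measured, and the signal of 164 is not assigned to either gene here.

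The Cyp2b genes encode steroid and drug hydroxylases, of which Cyp2b9 and Cyp2b13 are known from female mouse liver and Cyp2b19 from keratinocytes. Cyp2b9 probe 1 (chr7:23107426-23107485) had 134 in the control culture and 121 in the MEF2C-ASR culture, a difference of -0.11 with an error of 0.23, and its control spot carried a background-outlier flag. Cyp2b9 probe 2 had 22.1 and 17.2 and was well above background on neither array. The difference of Cyp2b9 probe 1 is smaller than its own error, so no difference was detectable. That probe also lists a RefSeq accession of Cyp2b10.

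Cyp2b13 probe 1 (chr7:22992625-22992684) had 74.98 in the control and 61.5 with MEF2C-ASR, a difference of -0.25 with an error of 0.27. Cyp2b13 probe 2 (chr7:22986378-22992433) had 44.8 and 29.8, a difference of -0.56 with an error of 0.39, and also lists accessions of Cyp2b9 and Cyp2b10. Both Cyp2b13 differences are under 2-fold, and the second rests on signals near the limits of 38.3 on the control array against 20.0 on the other. Cyp2b19 probe 1 (chr7:23669651-23669710) had 149 and 139, a difference of -0.06 with an error of 0.22. Cyp2b19 probe 2 had 8.51 and 4.39, both surrogates that the software puts in for signals too dim to measure. No measured Cyp2b probe reached 2-fold in either direction.

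Cyp2g1 encodes an olfactory steroid hydroxylase. Its first probe (chr7:23718352-23718411) had 48.9 in the control culture and 37.1 in the MEF2C-ASR culture, a difference of -0.36 with an error of 0.36, so the difference equals its error. Its second probe had surrogates of 8.59 and 4.46. Cyp1b1, which oxidises oestrogens and polycyclic hydrocarbons and is a target of the dioxin receptor, lies on chromosome 17. Both its probes held surrogates, 8.47 and 8.43 in the control and 4.46 and 4.44 with MEF2C-ASR. Cyp1b1 was thus not detectable on either array, and the lower surrogates on the MEF2C-ASR array are no measured difference of the gene. Of the 7 genes with a pair of probes, Cyp2b9, Cyp2b19 and Cyp2g1 had 1 probe measured and 1 below the limit on both arrays.

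Repeated spots gave the error of spotting at each level. Over 144 probes printed in 10 spots each, the standard deviation over spots of the difference was 0.23 for control levels below -3 (39 probes), 0.08 between -3 and 0 (29 probes) and 0.04 at 0 or above (76 probes). The measured Cyp2b and Cyp2g1 probes all have control levels below -3. The Cyp2b and Cyp2g1 differences from -0.56 to -0.06 are therefore up to 2.37 times that spotting error, and only that of Cyp2b13 probe 2 is more than 2 times as large. The differences of Cyp2a4 probe 2, Rbp4 and Akr1c18 are larger than both kinds of error, and neither error covers the spread between cultures. Because the genes were chosen for large differences on these arrays, this comparison is no test. The spotting error is also sorted by control level alone, while the MEF2C-ASR level of Rbp4 was -3.15.

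Akr1c18 encodes the hydroxysteroid dehydrogenase that inactivates progesterone. Its probe (chr13:4019629-4021004) had 10339 ± 1034 in the control and 2078 ± 208 with MEF2C-ASR. The difference was -2.28 with an error of 0.20, or 4.85-fold lower, and 39 of the measured probes were as low or lower. Unlike Cyp2a5, Akr1c18 thus stayed far above the limit with MEF2C-ASR. Akr1c13, a close relative in the same cluster, had 17522 ± 1752 on the control array against 12265.5 ± 1227 on the other (chr13:4087761-4089711). Its difference of -0.48 with an error of 0.20, or 1.39-fold lower, did not reach 2-fold, and 1592 measured probes were as low or lower.

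Rbp4 had 1016 ± 102 in the control culture and 139 ± 14.6 in the MEF2C-ASR culture (chr19:37817322-37817381). The difference was -2.83 with an error of 0.21, or 7.12-fold lower, and 16 measured probes were as low or lower. Rbp4 therefore shows the lowest difference of the 9 measured probes, close to that of Cyp2a4 probe 2. The difference between those 2 values, -2.83 and -2.80, is smaller than the error of either.

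Along chromosome 7 the low values did not extend to the whole Cyp2 cluster, which runs from 22576517 to 24052469 in the coordinates of the files. Of 8 further probes there for Cyp2 genes outside the chosen set, 2 were measured. Cyp2a22, a further Cyp2a gene named through its gene ID, had 239 in the control and 35.7 with MEF2C-ASR, a difference of -2.70 or 6.51-fold lower. Cyp2b10, a drug-inducible hydroxylase, had 45.1 and 42.6, a difference of -0.05. The 2 measured probes of the Cyp2a type, Cyp2a4 probe 2 and that of Cyp2a22, were thus low. The measured probes of the Cyp2b type lay within 2-fold. Whether the Cyp2a22 probe also reads Cyp2a4 or Cyp2a5 transcripts was not tested, so these 2 may not be separate readings. Cyp2a12 and Cyp2f2 were well above background on neither array. Of 11 probes without a Cyp2 name within the cluster 4 were measured, with differences from -0.22 to -0.02. Of these, 1 is annotated as testosterone 16a-hydroxylase type c, with 619 and 565 (-0.10). It was set outside the family by its name alone.

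Within 1 Mb on either side of the Cyp2 cluster 91 of 114 probes were measured, with a median of 0.01. Of these 2 were at least 2-fold lower and 1 was at least 2-fold higher. An unnamed transcript differed by -1.03. Cd79a, a chain of the B cell receptor, was higher by 1.15. Over all 24391 measured probes 1.78% were at least 2-fold lower and 1.6% at least 2-fold higher. The counts in the flanks are too small to be told from these shares, so nothing is read from them.

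**Figure D2:**
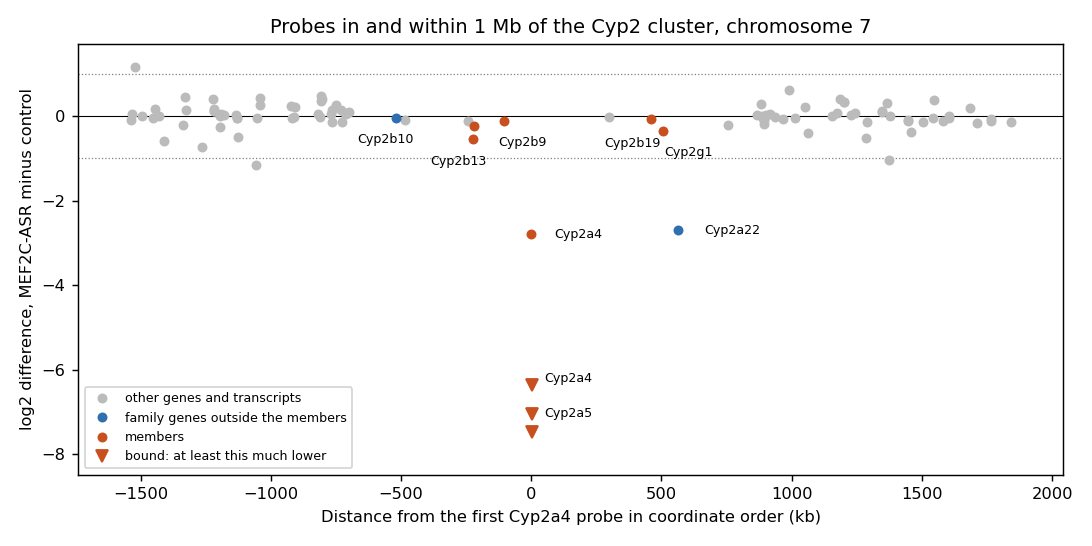
Log2 difference (MEF2C-ASR minus control) of each measured probe in and within 1 Mb of the Cyp2 cluster on chromosome 7. Distance is in kb from Cyp2a4 probe 2, which comes before Cyp2a4 probe 1 in coordinate order. Triangles are bounds and dotted lines mark 2-fold. The probe named for Cyp2a4 (-2.80), Cyp2a22 (-2.70) and the 3 bounds from 6.37 to 7.48 stand below the other probes, while the Cyp2b and Cyp2g1 probes lie above -0.56 or at it.

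In the Akr1c cluster on chromosome 13, from 3974319 to 4470901 in the files' coordinates, 5 of 8 further Akr1c probes were measured, with a median of -0.47. Akr1c19, which also oxidises hydroxysteroids, had a bright probe at 8435 and 5891, a difference of -0.48, and a dim probe at 102 and 32.7, a difference of -1.60. Its probes disagree over the 2-fold limit. Akr1c12, known from myeloid cells, had 5201 and 3654, a difference of -0.47.

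The bright Akr1c19 probe, Akr1c12 and Akr1c13 thus differed by nearly the same amount, from -0.48 to -0.47, and Akr1c18 by more. The Akr1c13 probe also lists the RefSeq accession of Akr1c12, so these 2 are not separate readings, and cross-hybridisation among the near copies was not tested. Akr1c6 had 87.8 and 86.8, a difference of 0.02, and Akr1c21 had 90.8 and 72.1, a difference of -0.30. Akr1c14 was well above background on neither array. Within 1 Mb of this cluster 12 of 25 probes were measured with a median of 0.02, and 1 was at least 2-fold lower, a probe of Asb13 at -1.11 whose other probes gave -0.60 and -0.20. Asb13 encodes an adaptor of ubiquitin ligases. Over all measured probes 1.78% were at least 2-fold lower, and nothing is read from a count of 1.

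**Figure D3:**
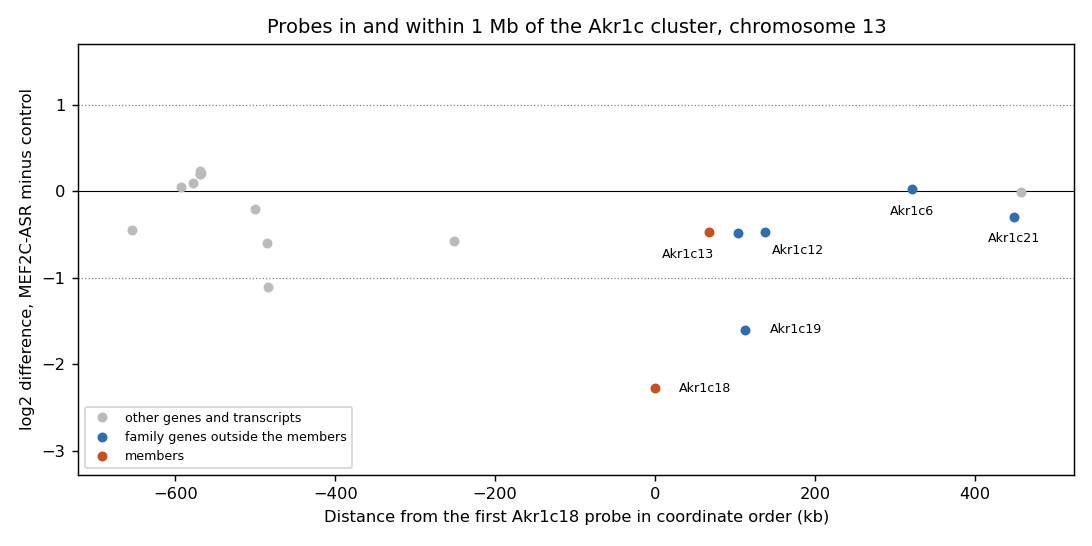
Log2 difference (MEF2C-ASR minus control) of each measured probe in and within 1 Mb of the Akr1c cluster on chromosome 13, against distance in kb from the Akr1c18 probe; dotted lines mark 2-fold. Akr1c18 is lowest at -2.28, the dim Akr1c19 probe is at -1.60, and Akr1c13, the bright Akr1c19 probe and Akr1c12 lie together near -0.48.

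The probes most like Cyp2a5 probe 1 and the Akr1c18 probe were sought by distance in control level and difference over the 2 arrays, on the log2 scale, among probes outside the chosen set. Nearest to Cyp2a5 by this measure was the milk protein gene Csn2, at a distance of 0.28, with 4445 on the control array against 7.53 on the other, a spot with a background flag. Both MEF2C-ASR signals are below the limit and have no order there, so that distance rests on background readings. The next outside the set were the tetraspanin gene Tspan8, at 4.52, with 816 and 21.8, and the muscle LIM protein gene Pdlim3, at 4.91, with 387 and 8.52. The MEF2C-ASR signal of Pdlim3 is below the limit too. Nearest to Akr1c18 were Frat1, at 0.61 with 8082 and 2298, Hmgn1, at 0.67 with 10302.5 and 3302, and Ppic, at 0.79 with 10489 and 3648. Frat1 acts in WNT signalling, Hmgn1 binds nucleosomes and Ppic is a cyclophilin. With 2 arrays this likeness is only that of a pair of values.

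The related enzymes outside the set were examined by lists chosen with earlier results of these data known, with a gene's value the mean over its measured probes and, for genes with several probes, the signals of the brightest. Over all 16582 measured genes the median was -0.03, with 1.92% at least 2-fold lower and 1.74% at least 2-fold higher. Of 74 other cytochrome P450 genes on the array 33 were measured, 1 was at least 2-fold lower and 3 were at least 2-fold higher, with a median of 0.01. The lower one was Cyp2a22 (-2.70, above). The higher ones were the fatty acid hydroxylase Cyp4a31, with 108 and 271 (1.36), the retinoic acid hydroxylase Cyp26a1, with 167 and 418 (1.36), and the leukotriene hydroxylase Cyp4f18, with 586 and 1354 (1.24). Of the 34 other Cyp2 genes 12 were measured with a median of -0.02, and Cyp2a22 was the single one past 2-fold.

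Of 15 other Akr genes 11 were measured with a median of -0.01, and 1 was at least 2-fold lower, Akr1c19 with a mean of -1.04 over its probes. The 4 measured Akr1c genes among them had a median of -0.39. It stayed below 0 under each scaling tried, from -0.51 to -0.33 over the scaling and background settings. The medians of all Akr genes and of all P450 genes outside the set were near 0, and that of the P450 genes changed sign with the scaling (-0.12 to 0.02). With all probes kept, dim ones included, they were -0.47 and -0.29. The median negative control spot had 8.17 in the control and 4.31 with MEF2C-ASR, so dim probes tend to read lower there. These 2 medians are therefore no measured difference of the genes.

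Of 19 xenobiotic receptors and P450 partners, activators of these enzymes with their inhibitors and the genes that feed them electrons, 16 were measured and 0 differed by 2-fold in either direction, with a median of 0.08. The reductase Por had 38352.5 and 44034 (0.24) and the transcription factor Cebpb 59078 and 70898 (0.25). Ahr had 136 and 150.5 (0.18). Nr1i2, a nuclear receptor for drugs, had 80.8 and 46.8 (-0.75), the lowest value of the list. The nuclear receptor Nr1i3, a driver of Cyp2b genes in liver, was well above background on neither array. Ahr, Nr1i2 and Nr1i3 were named after their values were seen. The part of these regulators in the members' differences was not tested.

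Of 43 conjugation and detoxification enzymes on the array 30 were measured, 1 was at least 2-fold lower and 0 higher, with a median of 0.06. Ephx2, an epoxide hydrolase, had 138 and 45.7 (-1.55). The drug efflux pump Abcg2 was bounded higher by 1.21, with 29.7 and 86.6. Of 29 steroid hormone enzymes and receptors 20 were measured and 0 differed by 2-fold, with a median of 0.00. Hsd17b10, a mitochondrial steroid dehydrogenase, had 16108 and 14511 (-0.11), and the cholesterol-binding protein Tspo 12128 and 17446 (0.57).

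Of 33 retinoid carriers, enzymes and receptors outside the set, into whose pathway Rbp4 feeds, 19 were measured, 2 were at least 2-fold lower and 1 higher, with a median of -0.16. Dhrs9, a retinol dehydrogenase, had 97.7 and 22.9 (-2.06), and Dhrs3, which reduces retinaldehyde, had 978 and 387 (-1.26, 2.40-fold lower). The MEF2C-ASR signal of Dhrs9 lay near the lowest passing signal of that array (20.0), where negative control spots reached 24.6. Cyp26a1, which degrades retinoic acid, was higher (1.36, above). Retsat, a retinol saturase, came just short of 2-fold, with 5614 and 2778 (-0.98), and was named after its value was seen. The Rbp4 receptor Stra6 had 176 and 155.5 (-0.14), and the Rbp4 partner Ttr was well above background on neither array. Stra6 and Ttr were also named after their values were seen.

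**Figure D4:**
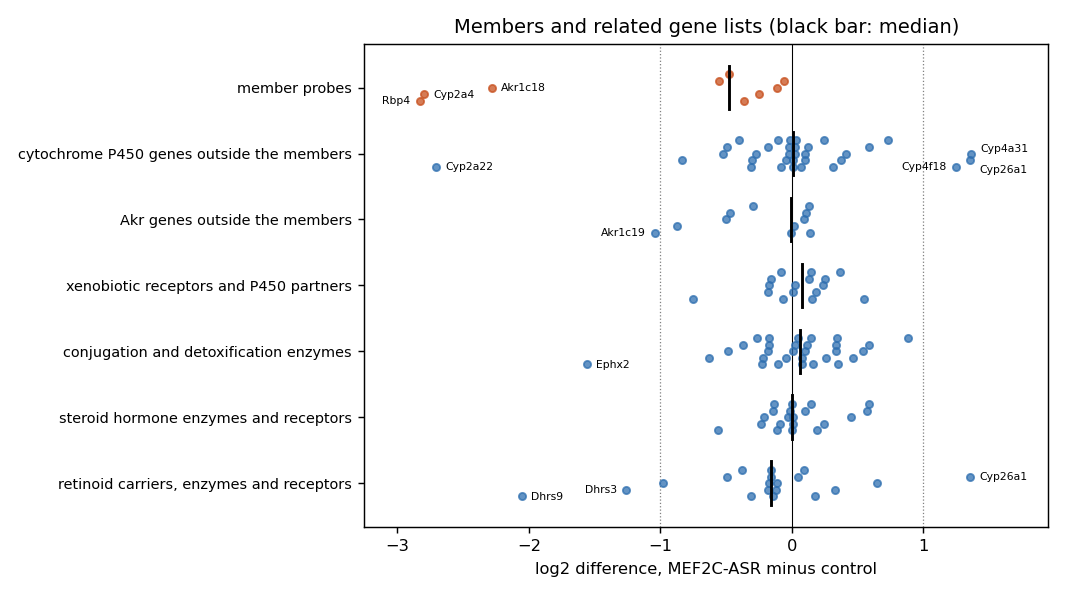
Log2 differences (MEF2C-ASR minus control) of the 9 measured member probes (orange) and of the measured genes of 6 related lists (blue), with black bars at the medians and dotted lines at 2-fold. The members' median is -0.48, those of the lists lie between -0.16 and 0.08, and the genes past 2-fold are named.

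Markers of other cell types were read beside the members, since several of these genes are known from liver, skin, nose or gonads. Of all non-control spots 60.1% were well above background in the control and 67.5% with MEF2C-ASR. A higher count of passing markers with MEF2C-ASR is therefore not read as a gain of a cell type. Of 19 hepatocyte markers on the array 7 were well above background in the control and 11 with MEF2C-ASR, with summed signals of 6369.5 and 10512. Most of each sum was Afp, with 5426 and 9672 (0.87). Alb, Ttr, Cyp2e1, Cps1, Fga, Ahsg and Pck1 were well above background on neither array. Fgb was lower (-1.47), with 64.2 and 22.6, the latter near the lowest passing signal of the MEF2C-ASR array (20.0). Without Afp the sums were 943 and 839, so the direction of the hepatocyte sum rests on Afp. Of 16 epithelial and olfactory markers 10 were well above background on each array, with sums of 1321 and 1299. Of the 10 measured on both arrays 7 were below 0, with a median of -0.20, while Krt5 (1.02) and Cdh1 (1.43) were at least 2-fold higher. Over all 16582 measured genes 9153 were below 0.

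Of 11 gonad and adrenal markers 6 were well above background in the control and 9 with MEF2C-ASR, with sums of 5240 and 6769, led by Inhba (0.67) and Insl3 (0.22). Of 15 stromal and adipose markers 6 and 10 were, with sums of 40443 and 49656, of which the smooth muscle actin gene Acta2 alone gave 37679.6 and 47729. Without Acta2 the sums were 2763 and 1927, in the other direction. In that list Pdgfrb was lower (-1.81), Lum was bounded lower by 3.46 and Lpl bounded higher by 2.48. Pdgfrb had 83.8 and 23.4, the latter near the lowest passing signal of the MEF2C-ASR array. Here too the counts stand beside shares of 60.1% and 67.5% of all non-control spots, with lowest passing signals of 38.3 and 20.0. The higher counts with MEF2C-ASR are not read as a gain. The part of these cell types in the members' differences was not tested. The 16 myeloid progenitor markers were all well above background on both arrays, with a median of 0.26, and Mpo was 2.15-fold higher, so both cultures carried the labelled cell type's markers.

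Each array held 43379 non-control spots, of which 60.1% (control) and 67.5% (MEF2C-ASR) were well above background, and 0 were saturated. The dimmest signal that passed was 38.3 in the control, so dim members have a coarser limit there. Mef2c had 795 and 1969 on a probe measured on both arrays (1.34), in the direction of the labels, and a second probe with 7.86 and 7.76 was well above background on neither. Which of these probes lies in the deleted part of the gene is not stated in the sources used here. Hprt, the gene used for normalising in the study, had 56850 and 56305 (0.02).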

How the data were processed

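The deposited files give a linear intensity per spot from Agilent Feature Extraction 9.5.1.1, per the file headers, which subtracted background, detrended each array and set surrogates for the dimmest signals. The deposited value table held the same intensity values, with a largest relative difference of 0 over 45018 rows and medians of 85.8 and 83.2, so no centring or log scale had been applied. Here log2 values were taken and each array's 75th percentile (signals of 1272 and 1240) was subtracted. Spots flagged as outliers were left out (202 in the control, 201 with MEF2C-ASR), and spots of a probe were averaged, the probe passing as well above background where any of its spots did. Sums of marker signals take each gene's brightest probe, dim ones included. Probes were named through RefSeq genes of GRCm38.p6 by accession (22951), symbol (6659), older symbol (3109) or gene ID (294), and 8161 kept the file's name.

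The members, the gene lists and the naming rule were chosen with earlier results of these data known. All members were named, and in each list up to 4 genes at least 2-fold apart or, where none was, the 2 of highest level. Other Cyp, Akr1c and neighbouring genes past 2-fold were named too, up to 8. The values of 1 neighbouring gene are not reported here. Alternatives were normexp (offset 50, limma 3.58.1 in R 4.3.3, fitted without outlier spots), spike-in, percentile and quantile scaling, the unscaled deposited table, removal of background-outlier spots and use of all probes. The scripts (Python 3.11.15, pandas 2.3.3, Biopython 1.88) were tested on simulated data. Promoter windows came from RefSeq, and protein sequences were not used here.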

Additional observations from a re-analysis of the deposited data

How the results depend on the processing

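The count of chosen probes at least 2-fold lower was 3 in the main setting and under each alternative except the use of all probes, where it was 6 because the 3 bounded probes are then counted as differences. The count at least 2-fold higher was 0 under all 7 alternatives. The bounds at least 2-fold lower numbered 3, or 2 without background-outlier spots, where Cyp2a4 probe 1 has no value. Without the setting that uses all probes, Akr1c18 ranged from -2.41 to -2.28, Rbp4 from -2.96 to -2.38, Cyp2a4 probe 2 from -2.93 to -2.38 and Akr1c13 from -0.61 to -0.45. The bound of Cyp2a5 probe 1 ranged from -7.61 to -5.65 and that of Cyp2a5 probe 2 from -7.16 to -4.95. For Cyp2a4 probe 1 the bound ranged from -6.50 to -4.58. The weakest values came under normexp, whose offset is added to all signals and weighs most on dim ones. Cyp2b9 ranged from -0.24 to 0.00, so its direction is not settled. Over all measured probes 435 were at least 2-fold lower and 391 higher, against 170 and 206 with normexp, 562 and 296 with spike-in scaling, which moved the median of all probes by -0.13, and 1444 and 1314 with all probes kept. Spike-in scaling also turned the medians of the xenobiotic receptor and conjugation lists below 0 (-0.05 and -0.07). No paired analysis was possible because each group is 1 array and the labels give no replicate numbers, and no array could be left out for the same reason. With all probes kept the medians of the other Akr, P450 and Cyp2 genes were -0.47, -0.29 and -0.32. These values include dim probes, whose background readings tend to be lower on the MEF2C-ASR array. Signal over background limits the dim members, with the lowest passing signals at 38.3 in the control and 20.0 with MEF2C-ASR.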
